A study of Abies pinsapo with 12 samples.

Results

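The transcripts described here encode 2 chitinases, ap_10285 and ap_21337, and 1 jacalin-type lectin, ap_18349, of the Spanish fir (*Abies pinsapo*), a relict conifer. They are 3 of the 76481 assembled transcripts in the table of read counts. The study chose them by their difference between bluish and green needles in these same trees, so that difference is given here as a description, without a test. RNA-seq was run on needles of 6 trees with bluish needles and 6 trees with green needles. All were adult trees in the field, with no treatment named in the labels, and each library came from 1 tree of its colour. P-values therefore measure the spread between trees. The extraction text in the labels speaks of roots of pine seedlings, whereas the tissue label and the study's methods give needles. A conifer RuBisCO small subunit was the needle marker used here, as the sum of ap_2598 and ap_81338. It was read in every library, at 13.3 to 60.2 CPM, counts scaled to the size of the library. No root marker was examined, so this level does not decide the tissue.

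Chitinases are glycoside hydrolases that cut chitin, the polymer of the fungal cell wall and of arthropod cuticle, and plants make them both as pathogenesis-related proteins and during growth. Jacalin-type lectins are proteins that bind sugars such as mannose or galactose, and in several plants they take part in responses to stress and to pathogens. In the annotation provided with the study, both chitinases stood under the Gene Ontology (GO) terms for cell wall macromolecule metabolism and for the breakdown of organonitrogen compounds. The lectin stood under hydrolase activity and not under carbohydrate binding. Because needles were extracted whole, fewer cells that express a transcript and less of it per cell cannot be told apart.

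The libraries held 64978939 to 91973481 counts, and 23352 transcripts passed the filter of at least 2 CPM in at least 2 libraries, all 3 described here among them. None of the 3 was at 0 in any tree. The level that 3 read pairs give was between 0.0695 and 0.0908 CPM, and the lowest value among the 3 transcripts was 14 counts. Lengths were not at hand, so no level is compared between transcripts, apart from a rank by CPM given with the spread. Where counts of a pair of transcripts are given as a ratio, that ratio is compared between trees only.

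The chitinase ap_10285 was at 7.26, 1.55, 0.765, 5.37, 3.59 and 1.88 CPM in bluish trees 1 to 6. In green trees 1 to 6 it was at 1.06, 2.37, 2.62, 0.886, 0.832 and 1.29 CPM. Bluish trees 1, 4 and 5 lay above every green tree, and bluish tree 3 lay below every green tree, so the colours overlapped. Bluish trees averaged 3.40 ± 2.51 CPM and green trees 1.51 ± 0.786 CPM (SD, n = 6 each). The fitted difference, bluish minus green, was a logFC of 1.17 (SE 0.510), where logFC is the fold change on the log2 scale. Of the 36 pairs of a bluish and a green tree, the bluish tree was higher in 26.

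The chitinase ap_21337 was at 4.00, 4.00, 0.202, 2.42, 8.81 and 5.08 CPM in bluish trees 1 to 6, and at 0.361, 0.729, 0.714, 2.85, 1.28 and 1.39 CPM in green trees 1 to 6. Bluish trees 1, 2, 5 and 6 were above the highest green tree, which was tree 4, whereas bluish tree 3 was the lowest of all 12. The range among bluish trees was 43.6-fold, and 7.91-fold among green trees. Bluish trees averaged 4.08 ± 2.87 CPM and green trees 1.22 ± 0.887 CPM. The logFC was 1.74 (SE 0.657), and the bluish tree was higher in 29 of 36 pairs. The low bluish tree rested on 14 counts, against 160 to 711 in the other bluish trees.

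The lectin ap_18349 was at 28.2, 34.1, 30.0, 31.2, 71.0 and 18.2 CPM in bluish trees 1 to 6. In green trees 1 to 6 it was at 12.9, 18.7, 4.45, 10.9, 41.2 and 15.6 CPM. All 6 bluish trees were above the green median of 14.2 CPM, and 4 of the 6 green trees were below the lowest bluish tree. Green tree 5 was nevertheless higher than every bluish tree other than bluish tree 5. Bluish trees averaged 35.4 ± 18.2 CPM and green trees 17.3 ± 12.7 CPM. The logFC was 1.03 (SE 0.444), and the bluish tree was higher in 30 of 36 pairs.

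**Figure D1:**
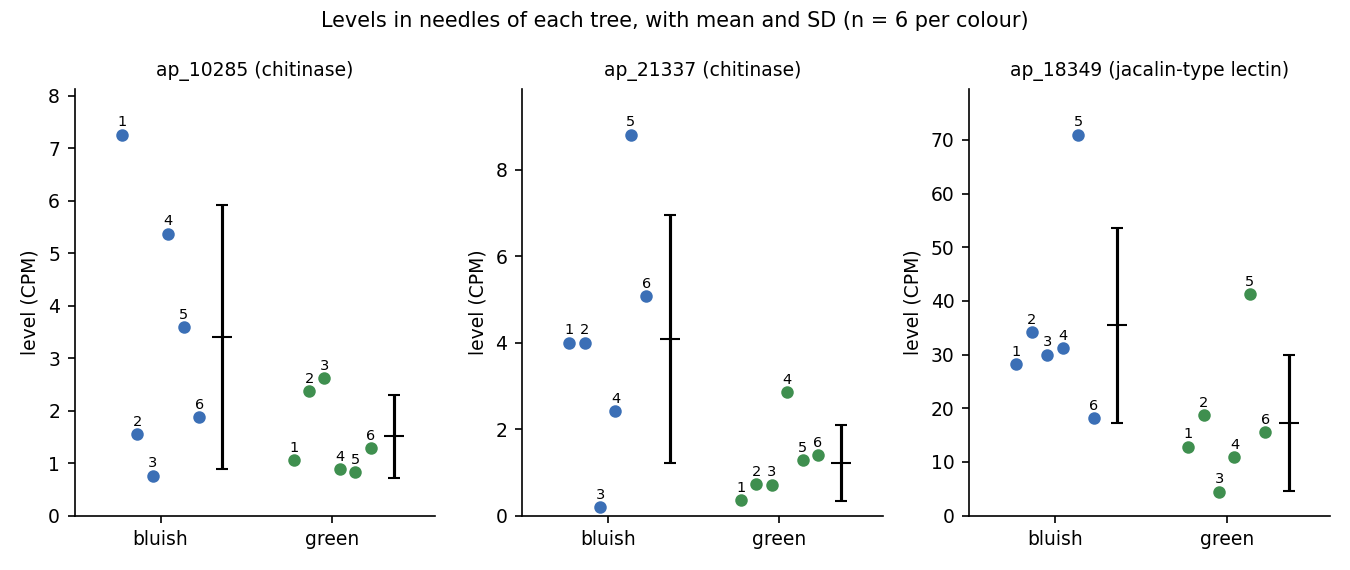
Level in CPM (vertical axes, from 0) of each transcript in the 6 bluish and 6 green trees, with the tree number beside each point and the mean with its SD as a black bar. The colours overlap in all 3 panels: bluish tree 3 is the lowest of all 12 trees for both chitinases, and tree 5 is the highest of its colour for the lectin.

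Trees of one colour differed far more in these transcripts than in most others. The SD of log2(CPM + 0.5) within a colour was 0.80 for ap_10285, 1.02 for ap_21337 and 0.84 for ap_18349, against a median of 0.24 over the 23352 transcripts. That SD was lower than theirs in 95.0%, 97.3% and 95.5% of the tested transcripts, respectively. These shares take in transcripts of every read level. An average CPM below that of ap_10285, ap_21337 and ap_18349 was found in 13.4%, 15.2% and 71.7% of tested transcripts. Spread was not compared at equal level. Whether choosing the transcripts on the colour contrast favours a high spread was not tested. The chitinases were spread mostly among bluish trees, with SDs of 0.99 and 1.28 there against 0.53 and 0.68 among green trees. The lectin went the other way, with 0.63 among bluish and 1.01 among green trees. Whether the spread differs between the colours was not tested. On this scale the colour of the needles took up 22.1%, 29.3% and 37.0% of the sum of squares over the 12 trees, for ap_10285, ap_21337 and ap_18349 in that order, and differences between trees of one colour took up the rest.

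No transcript of the 3 passed FDR below 0.05 with an absolute logFC above 1 in edgeR's quasi-likelihood test over all tested transcripts, a threshold that 0.00428% of them passed (1 transcript, and 1478 had an unadjusted p under 0.05). DESeq2 called 0 of the 3 and 0.0942% of all. An exact test with one dispersion shared by every transcript called 3 of 3, higher in bluish trees, where 0.715% of all tested transcripts were called in that direction and 1.94% in either. That test gives each transcript the same spread, a biological coefficient of variation of 0.327, while the fit by transcript gave 0.603 for ap_10285, 0.751 for ap_21337 and 0.522 for ap_18349. As the transcripts were chosen on this contrast, nothing is read from these counts.

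The size of the difference moved with single trees. With each tree left out in turn, the logFC of ap_10285 ran from 0.80 without bluish tree 1 to 1.40 without green tree 3. For ap_21337 it ran from 1.36 without bluish tree 5 to 2.20 without green tree 4, and for ap_18349 from 0.71 without bluish tree 5 to 1.51 without green tree 5. The sign was the same in every one of these fits.

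**Figure D2:**
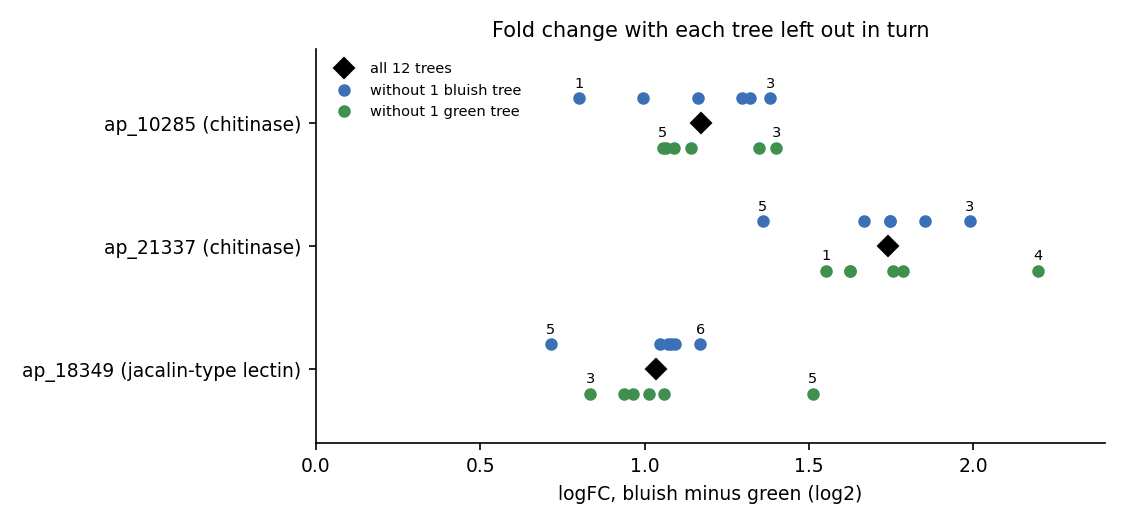
logFC of bluish minus green trees (horizontal axis, log2 scale) for the 3 transcripts with all 12 trees (black diamonds) and with 1 bluish or 1 green tree left out (coloured points, with the tree number at the lowest and highest). All points lie above 0, and the widest runs are 1.36 to 2.20 for ap_21337 and 0.71 to 1.51 for ap_18349.

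The chitinases did not keep a fixed proportion. The counts of ap_21337 for each count of ap_10285 in the same library ranged from 0.264 to 2.71 in bluish trees and from 0.272 to 3.22 in green trees. Bluish tree 1 was the highest for ap_10285 and the fourth for ap_21337, whereas green tree 3 was the highest for ap_10285 and the fifth for ap_21337. Only bluish tree 3 held the same place in its colour for both, the lowest.

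Covariation within a colour was not used to choose the transcripts, so it was tested, with exact permutations of the trees (two-sided) and Benjamini-Hochberg adjustment over 9 relations. Between the chitinases, Pearson's r of log2(CPM + 0.5) was 0.52 in the 6 bluish trees (exact permutation p = 0.292, adjusted 0.728) and Spearman's rho was 0.14 (exact p = 0.803, adjusted 0.903). In the 6 green trees r was −0.46 (exact permutation p = 0.376, adjusted 0.728) and rho −0.43 (exact p = 0.419, adjusted 0.903). After each colour's mean was subtracted, r over the 12 trees was 0.30 (exact permutation p = 0.485, adjusted 0.728). Here and below, rho over 12 trees used ranks taken within each colour, and it was −0.14 (exact permutation p = 0.698, adjusted 0.903). Pearson's r became −0.32 without the 2 trees farthest from the median of ap_10285, bluish trees 1 and 3, and −0.34 without bluish tree 3 alone. For the lectin with a described chitinase, the 2 farthest trees below are those of the chitinase. With any other transcript they are those of the described transcript. A relation between the chitinases was thus not detectable with these trees.

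The lectin was no closer to either chitinase. Over the 12 trees with the colour means subtracted, r with ap_10285 was −0.14 (exact permutation p = 0.638, adjusted 0.820) and rho −0.26 (exact permutation p = 0.463, adjusted 0.903), with r −0.18 after the 2 farthest trees were left out. With ap_21337, r was 0.20 (exact permutation p = 0.479, adjusted 0.728) and rho 0.20 (exact permutation p = 0.575, adjusted 0.903), and r was 0.0048 without the 2 farthest trees. Within single colours, r with ap_10285 was 0.18 in bluish and −0.55 in green trees, and with ap_21337 0.31 and 0.14, and none of the 9 relations had an adjusted p below 0.728.

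**Figure D3:**
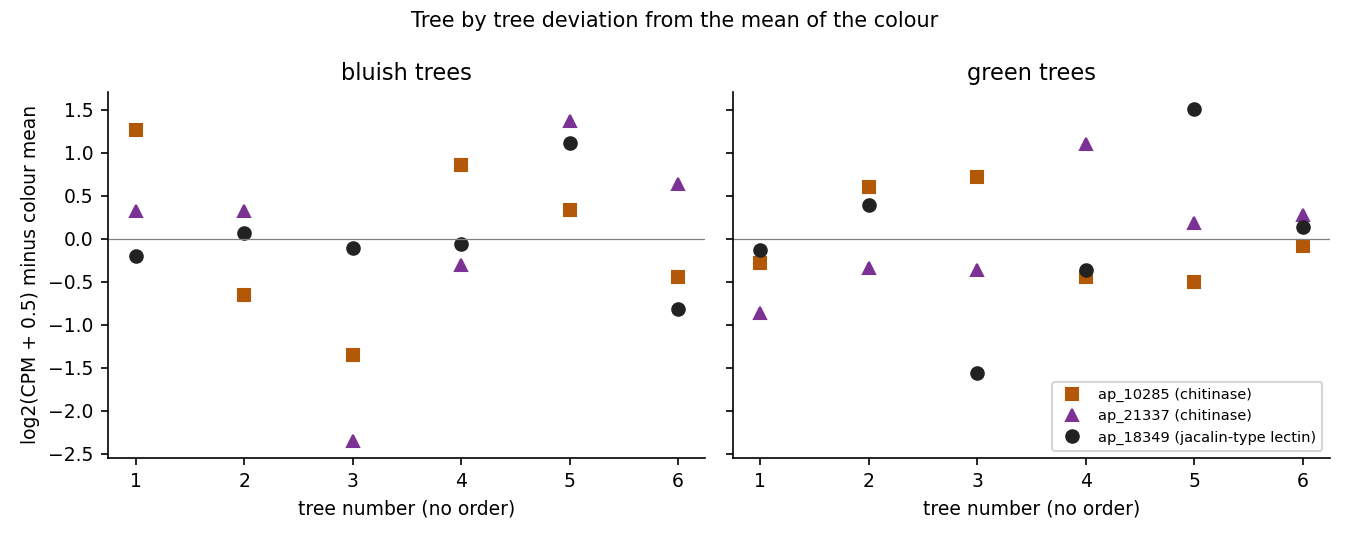
Deviation of log2(CPM + 0.5) from the mean of the colour (vertical axis) for ap_10285 (squares), ap_21337 (triangles) and ap_18349 (circles) in bluish (left) and green trees (right); tree numbers carry no order. Both chitinases are lowest in bluish tree 3, and the lectin is highest in tree 5 of each colour, while no pair of transcripts keeps the same order of trees.

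Of the other annotated lectins, only ap_4130 had an adjusted p under 0.05 for covariation with ap_18349, and for Pearson's r only. That test was added after the values were seen. The annotation gave 3 more jacalin-type lectin transcripts, ap_4130, ap_5517 and ap_24863, each with its best protein match in Sitka spruce (*Picea sitchensis*). In bluish trees these averaged 357.5 ± 156.8, 152.4 ± 43.1 and 9.80 ± 3.81 CPM, in that order, against 205.3 ± 154.1, 104.0 ± 48.5 and 6.36 ± 4.11 CPM in green trees (SD, n = 6). Tree 5 of each colour was the highest in its colour for each of these 3 transcripts and for ap_18349. Among all tested transcripts, bluish tree 5 was the highest bluish tree in 19.3% and green tree 5 the highest green tree in 16.7%.

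Of 21275 tested transcripts with a mean of at least 2 CPM, ap_4130 had the pattern most like ap_18349, with r = 0.96 over the 12 trees after the colour means were subtracted. The test of this relation was added after the values were seen, as 1 of 66 relations of the 3 transcripts with 22 other annotated ones. Its adjustment covers those 66 relations and not the search over the 21275 transcripts. The relation with ap_4130 was the only 1 of the 66 with an adjusted p under 0.05 for Pearson's r (exact permutation p = 0.000205, adjusted 0.0135). Spearman's rho was 0.80 (exact permutation p = 0.00624, adjusted 0.103). Without the 2 farthest trees, green trees 3 and 5, r was 0.92. Within the bluish trees r was 0.96 (exact permutation p = 0.0194) and it rested on the extreme trees, since it was −0.23 without the 2 farthest. Within the green trees r was 0.95 (exact permutation p = 0.0125) and 0.70 without the 2 farthest. Neither passed adjustment over the 132 relations by colour (0.469 for both).

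With ap_5517 the lectin had r = 0.79 (exact permutation p = 0.00577, adjusted 0.190), and with ap_24863 r = 0.78 (exact permutation p = 0.0105, adjusted 0.231), each with rho 0.80 (exact permutation p = 0.00624, adjusted 0.103). The adjusted p of ap_4130 ran from 0.00993 to 0.0871 over 17 alternative settings, being above 0.05 without bluish tree 5, bluish tree 6 or green tree 5. In the same 17 settings the adjusted p was under 0.05 in 3 for ap_5517 and in 2 for ap_24863. Both were under it on CPM without a log and without green tree 3, and ap_5517 also without green tree 4. The counts of ap_18349 were 8.55% to 11.8% of those of ap_4130 in bluish trees and 5.37% to 10.3% in green trees. How reads that match several transcripts were divided in counting is not given in the sources used here, the likeness of the lectin sequences was not measured, and their part in this relation was not tested.

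**Figure D4:**
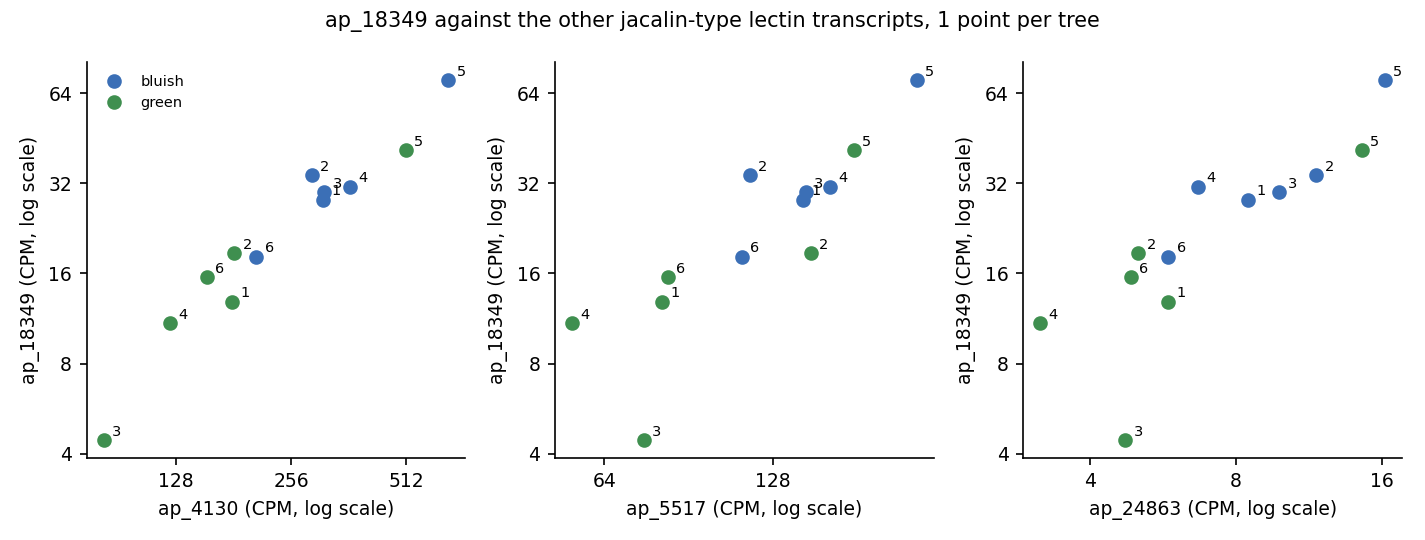
Level of ap_18349 (vertical axes, CPM on a log scale) against that of the other jacalin-type lectin transcripts ap_4130, ap_5517 and ap_24863 (horizontal axes, CPM on a log scale), 1 point per tree with its number, bluish trees in blue and green trees in green. Trees line up most closely with ap_4130, with tree 5 of each colour at the top of its colour, and green tree 3 is the lowest for ap_18349 in all panels.

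Behind ap_4130, the transcripts most like the lectin were ap_7487, annotated as a glutamine dumper-like protein, a family that acts in amino acid export (r = 0.93), and ap_82993 (r = 0.92). For ap_10285 they were ap_91004 (r = 0.84), whose match carries the domain of aspartic peptidases, ap_71923 (r = 0.84) and ap_16605 (r = 0.83). For ap_21337 they were ap_6044 (r = 0.91), ap_76656 (r = 0.89) and ap_12199 (r = 0.88). These values are over 12 trees with the colour means subtracted and are the highest of 21275, so they are given as descriptions. The neighbours of ap_21337 differed little between the colours (logFC −0.13, −0.14 and −0.12), and no annotation for them was used here.

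The 3 other annotated chitinases did not share a stable direction. They came from the same selected and possibly incomplete list of low-p transcripts as the other annotated transcripts below. The class I chitinase ap_76190 lay between 0.331 and 18.8 CPM in bluish and between 0 and 46.9 CPM in green trees (logFC −0.60, SE 1.47). The transcript ap_84941, annotated as Chitinase 1, reached 2.12 CPM in bluish and 7.77 CPM in green trees from 0 in each colour (logFC −1.01, SE 1.66). Both had their highest bluish value in tree 3, where ap_10285 and ap_21337 were lowest, and their highest green value in tree 1. The class IV chitinase ap_14392 ran from 1.09 to 5.22 CPM in bluish and from 0 to 3.90 CPM in green trees (logFC 0.60, SE 0.916). Its logFC stayed above 0 in 23 alternative settings, from 0.33 to 1.16. None of these 3 was called or had an unadjusted p under 0.05 by edgeR's quasi-likelihood test, and DESeq2 called 0. The test with a shared dispersion called 1 of the 3, against 1.94% of all tested transcripts. The direction of ap_76190 hung on green tree 1, without which its logFC was 2.94, and ap_84941 did not pass the filter there.

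None of the 3 other jacalin-type lectins was called by edgeR's quasi-likelihood test (adjusted p 0.791 to 0.813), none had an unadjusted p under 0.05, and DESeq2 and the shared dispersion called 0. Their logFC was 0.80 (SE 0.397) for ap_4130, 0.62 (SE 0.352) for ap_24863 and 0.55 (SE 0.275) for ap_5517. The annotation of these lectins, of the other chitinases and of the defence transcripts came from the readable part of a list ordered by p in these trees, so the lists may be incomplete and their direction is not independent evidence.

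Among 13 other transcripts for defence proteins, 10 had a logFC above 0 and 3 below, with a median of 0.57 against −0.0038 over all tested transcripts. Without bluish tree 5 the median was 0.26, with 10 still above 0. By edgeR's quasi-likelihood test 0 of 13 were called and 2 had an unadjusted p under 0.05, and DESeq2 and the shared dispersion called 0. The highest logFC were those of ap_5462 (0.81, SE 0.377), a thaumatin-like protein of the family that acts on fungal membranes and walls, and ap_77550 (0.71, SE 0.574), an antimicrobial peptide. The lowest were those of the dirigent proteins ap_76 (−0.77, SE 0.541) and ap_8755 (−0.60, SE 0.497), a family that guides the coupling of lignans. The 2 with an unadjusted p under 0.05, named after their values were seen, were the glucanase ap_13857, with logFC −0.56, and the dirigent protein ap_4425, with logFC 0.49. Bluish tree 5, the highest bluish tree for ap_21337 and ap_18349, was also the highest bluish tree for 9 of the 13 (69.2%). Over all tested transcripts the share was 19.3%. The 13 came from the list ordered by p in these trees, so this count is not independent evidence.

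One of them was singled out after its values were seen: ap_9794, a beta-1,3-glucanase, an enzyme of the class that often acts on fungal walls together with chitinases. Bluish trees 1 to 6 held 195.5, 166.2, 7.29, 77.8, 399.2 and 359.3 CPM of it, and green trees 1 to 6 held 96.8, 312.8, 79.5, 122.7, 190.8 and 7.46 CPM. In bluish trees it followed ap_21337, low in tree 3 and high in trees 5 and 6, with r = 0.99 (exact permutation p = 0.00278, adjusted 0.367 over 132 relations). Spearman's rho was 0.94 (exact permutation p = 0.0167, adjusted 0.367), and r was 0.98 without the 2 farthest trees. In green trees r was −0.15 (exact permutation p = 0.753, adjusted 0.956). The relation in bluish trees failed the adjustment, which with 6 trees no relation can pass alone, so the failure decides nothing. The difference between the colours was not tested.

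Of 5 other transcripts under both GO terms of the chitinases, 3 passed the filter and none was called by edgeR's quasi-likelihood test or had an unadjusted p under 0.05. DESeq2 called 0 and the shared dispersion 1 of the 3, against 1.94% of all tested transcripts. The logFC was 1.02 (SE 0.739) for ap_7630, −0.09 (SE 0.089) for ap_6442 and −0.26 (SE 0.173) for ap_70790. The filter removed ap_93209 and ap_2567, at means of 0.722 and 0.460 CPM in bluish and 0.899 and 0.144 CPM in green trees. The pathway terms the chitinases share therefore held both a transcript near their own size of difference and a pair close to 0.

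**Figure D5:**
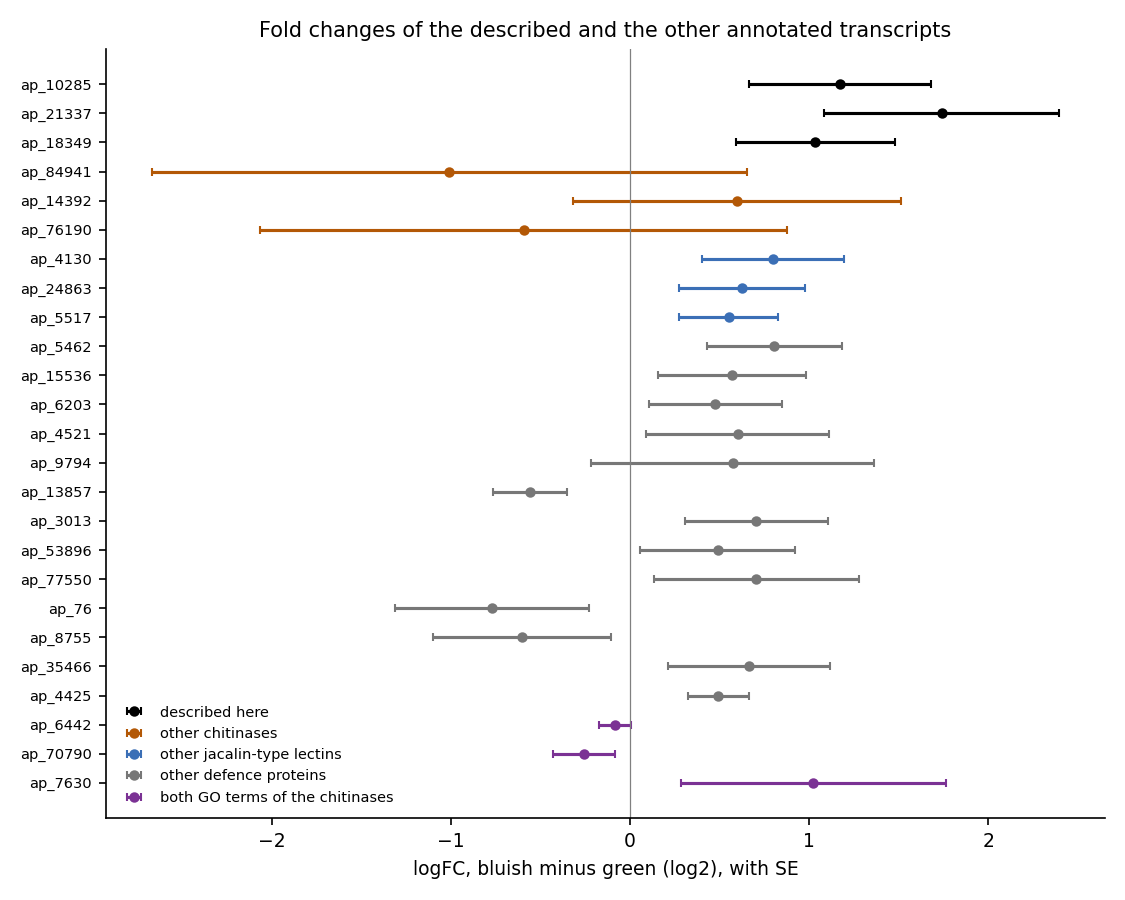
logFC of bluish minus green trees (horizontal axis, log2 scale, with SE) for the 3 transcripts (black) and for the other chitinases, the other jacalin-type lectins, other defence proteins and other transcripts under both GO terms of the chitinases that passed the filter (coloured by list). The 3 other lectins lie between 0.55 and 0.80, and the other chitinases spread from −1.01 to 0.60 with the widest errors.

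Transcripts whose best protein match lies in another organism were read at different levels among the trees, and whether they come from that organism was not tested. The summed level of 16 transcripts whose best match is a green alga was 31.5 to 94.7 CPM in bluish and 37.5 to 373.1 CPM in green trees, with at most 1 of the 16 at 0 in any tree. For 47 transcripts matching the hornbeam *Carpinus fangiana* the sums were 34.2 to 98.5 CPM and 47.2 to 448.7 CPM, with at most 1 at 0. Both lists came from transcripts with low p in these trees. Both sums were highest in green tree 4, which was the highest green tree for ap_21337 but only the fifth for ap_10285 and ap_18349, and their highest bluish tree was tree 5. Their part in the values of the chitinases and of the lectin was not tested.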

How the data were processed

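Per the labels and the study's methods, needle RNA of 12 trees was sequenced as paired reads, mapped to the assembled transcriptome of the species with BWA and counted per transcript with sam2counts. The authors deposited raw counts, not normalised, in 1 table (76481 transcripts, of which 2473 had no count). Of counts from 1 to 29, 76.0% were even, so a read pair mostly added 2 counts, and the floor of 3 pairs is 6 counts. That floor covers counting error only, whereas the SDs and the SEs of logFC include the spread between trees. Every column belonged to a sample (0 left over).

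The fit used edgeR 4.0.16 in R 4.3.3: at least 2 CPM in at least 2 libraries, TMM factors (0.947 to 1.04), the quasi-likelihood test of colour over all 23352 transcripts, and calls at FDR under 0.05 with absolute logFC above 1. DESeq2 1.42.0, an edgeR exact test with common or transcript-wise dispersion and the likelihood ratio test were alternatives, as were other factors, filters and leaving out each tree. CPM were computed on the TMM-scaled totals of the tested transcripts. Correlations used log2(CPM + 0.5) and all 720 pairings within a colour, or 518400 over both. On simulated counts the quasi-likelihood test recovered 93 of 100 transcripts changed by 1.5 and 98 of 100 changed by 2.5 on the log2 scale. Among the 22876 tested it called 7 unchanged ones. The changed transcripts were drawn from all with a mean of at least 2 CPM, each with its own spread. Recovery at a spread as high as that of the 3 described transcripts (biological coefficient of variation 0.522 to 0.751) was not measured.

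Chi-square per degree of freedom between libraries of one colour was 33.6 to 91.7, so none was a copy of another. The transcripts and lists were chosen with earlier results of these data known. Named were the 3 transcripts, all members of the lists of other chitinases, other lectins and shared GO terms, for other lists the called transcripts and the 2 highest and lowest by logFC, and the 3 nearest by correlation. Annotation came from the readable part of the study's supplementary tables, whose statistics were not used. No sequences were used here.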

Additional observations from a re-analysis of the deposited data

Results flagged for a closer look

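The bluish tree 5 value of the lectin ap_18349, 71.0 CPM, stood apart from the other bluish trees (18.2 to 34.1 CPM): its gap to the next tree was 0.698 of the whole range, above Dixon's critical value of 0.625 for 6 trees. Green tree 5 came close, at 0.611. The bluish trees for ap_18349 were 1 of 6 groups examined (3 transcripts in each colour). The critical value is for normally distributed values, for which chance alone gives about 1 such value in 20 groups. The gap was taken on CPM, and it was not computed on the log scale used for the correlations. Without bluish tree 5 the logFC of ap_18349 was 0.71.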

How the results depend on the processing

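Over all transcripts the quasi-likelihood test called 1, against 453 with the shared dispersion, 13 with transcript-wise dispersion, 15 with the likelihood ratio test, 22 with DESeq2 and 3 with the filterByExpr filter. Leaving out each tree in turn gave 1 to 2 calls, with 2 without bluish tree 4 or green tree 6. The cause of these differences was not tested. Same-numbered bluish and green trees did not deviate together (1 of 6 correlations over 0.1, and 1 of 6 trees correlated best with its own number), so the numbers do not pair the trees. With the tree number as a replicate block 0 transcripts were called, 1412 had an unadjusted p under 0.05, and the logFC was 1.00, 1.57 and 1.19 for ap_10285, ap_21337 and ap_18349. The block turned ap_76190 to 2.51 and ap_84941 to 2.58, and leaving out trees moved ap_76190 from −1.51 to 2.94. Their cause was not tested. The block also took the median logFC of the 13 defence transcripts from 0.57 to 0.28, and of the 3 other chitinases from −0.60 to 2.51 (a setting chosen after seeing the data for these medians). The logFC of the 3 described transcripts kept its sign in every alternative that gave a value. The filter of at least 2 CPM in at least 6 libraries removed ap_10285, ap_84941, ap_76190, ap_7630 and ap_77550, and ap_84941 also fell below the filter without bluish tree 3 or green tree 1, so these gave no value there.

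Leaving out single trees moved the colour-centred r from −0.34 to 0.41 between the chitinases (reversed without bluish tree 3), from −0.23 to 0.089 between ap_10285 and ap_18349 (reversed without green tree 3, and at 7.9e-05 without green tree 5) and from −0.018 to 0.30 between ap_21337 and ap_18349 (reversed without bluish tree 5). Correlations within 1 colour were not run on 5 trees. Settings for the lectin pairs were chosen after seeing the data: r of ap_18349 with ap_4130 ran from 0.94 to 0.97. With 6 trees a colour, the SE of logFC was 0.444 to 0.657 for the 3 transcripts, which limits what these trees can show.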

Other observations

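Cell wall macromolecule metabolism, a GO term that holds both chitinases, had 37 other transcripts, of which 22 passed the filter. Their logFC was above 0 in 14 and below 0 in 8, with a median of 0.11 against −0.0038 over all tested transcripts. The median was −0.019 without bluish tree 6 and 0.0085 without green tree 3. None was called or had an unadjusted p under 0.05 by edgeR's quasi-likelihood test, and DESeq2 called 0. The shared dispersion called 4 of the 22, against 1.94% of all tested transcripts. The study reported this term as enriched among transcripts higher in bluish needles, and it named ap_2740 and ap_15570 as higher there. Neither the direction nor the calls of this list are therefore independent evidence. By logFC the highest were ap_2740 (1.21, SE 1.17), annotated as a xyloglucan endotransglucosylase, an enzyme that remodels the hemicellulose of the wall, and ap_8387 (1.07, SE 0.577). The lowest were ap_6686 (−0.43, SE 0.381) and ap_70790 (−0.26, SE 0.173).

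Among the 66 relations, the most negative Pearson's r was that of the lectin ap_18349 with ap_6442, under both GO terms of the chitinases: r = −0.71 over 12 trees with the colour means subtracted (exact permutation p = 0.0146, adjusted 0.241), rho −0.77 (exact permutation p = 0.00979, adjusted 0.129), and r −0.69 without the 2 farthest trees. With ap_70790, under the same terms, r was −0.52 (exact permutation p = 0.0945, adjusted 0.450) and −0.86 without the 2 farthest trees, and rho was −0.80 (exact permutation p = 0.00624, adjusted 0.103). Neither relation passed the adjustment.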
